A study of Mus musculus with 14 samples.

Results

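Kidney transcript levels of 10 genes that mark injured, repairing or dedifferentiated tubule cells (Havcr1, Lcn2, Krt20, Vcam1, Sox9, Spp1, Cd44, Vim, Clu and Krt8) were examined in female mice born at term or preterm, with and without streptozotocin (STZ) diabetes. The members were chosen by gene symbol and matched to the gene identifiers of the count files, and all 10 of the 56980 genes listed there were found. All 10 were also among the 22339 genes that kept more than 10 summed counts over the 14 libraries and were tested.

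Whole-kidney RNA was sequenced from 18-week-old wild-type mice of the outbred CD-1 stock, with 1 library per mouse. The 4 groups were females born at term, either nondiabetic (T-ND, n = 4) or diabetic (T-D, n = 4), and females born preterm, either nondiabetic (PT-ND, n = 3) or diabetic (PT-D, n = 3). Diabetes was induced in early adulthood with STZ, a toxin taken up by pancreatic beta cells, and some PT-D mice, not identified in the labels, received another round. Preterm pups were delivered by Caesarean section a day before term, resuscitated and fostered by dams that drank the sedative acepromazine, whereas term pups were born naturally and stayed with their own mothers, so that preterm birth cannot be told apart from these procedures. According to the methods of the study, mice of all groups, controls included, were injected with cationic ferritin for imaging before the kidneys were taken.

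Depth on genes ran from 16697246 to 28673176 counts per library, with a median of 18765582. Counts of Xist ran from 1404 to 7598 and those of 4 Y-linked genes summed to at most 3, so every library matched its label of a female mouse. A plot in the supplement of the study gives some of these libraries symbols of another group or sex than the deposited labels do, and the labels were followed here. The names of 5 libraries (T-ND 1, T-ND 2, T-D 1, PT-ND 2 and PT-D 1) end in a letter a whose meaning was not given, and they are called the suffixed libraries here. Where leaving out these libraries together ended or made a member's call, the value is given beside it.

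Tubule cells that are damaged by ischaemia, toxins or protein overload lose part of their differentiated program and switch on a set of injury genes. Havcr1 encodes kidney injury molecule 1 (KIM-1), a receptor on the proximal tubule surface that binds dying cells, and Lcn2 encodes neutrophil gelatinase-associated lipocalin (NGAL), an iron-carrier-binding protein made mainly by distal tubule segments. Krt20, Krt8 and Vim encode intermediate filament proteins, Sox9 a transcription factor of regenerating tubule, Vcam1 and Cd44 cell surface adhesion molecules, and Spp1 and Clu the secreted proteins osteopontin and clusterin.

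The sequences before the start sites of Havcr1, Lcn2 and Krt20 are shown because these 3 genes were called higher together in PT-D than in PT-ND. RefSeq promoter windows, 250 bases before to 50 bases after a start site on GRCm38.p6, were found for 7 of the 10 members, and none was held for Clu, Vcam1 or Sox9. The 250 bases before the start are printed 5′ to 3′ on the strand of the gene, at chr11:46739973-46740222 (plus strand, the most upstream of 3 Havcr1 windows), chr2:32387740-32387989 (minus strand, Lcn2) and chr11:99438154-99438403 (minus strand, Krt20). Capitals mark letters that match a searched motif on either strand.
Havcr1: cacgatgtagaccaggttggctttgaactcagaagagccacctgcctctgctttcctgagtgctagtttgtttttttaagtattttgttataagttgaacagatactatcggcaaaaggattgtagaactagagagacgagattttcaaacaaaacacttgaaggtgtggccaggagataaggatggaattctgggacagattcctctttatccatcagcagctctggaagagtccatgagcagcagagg
Lcn2: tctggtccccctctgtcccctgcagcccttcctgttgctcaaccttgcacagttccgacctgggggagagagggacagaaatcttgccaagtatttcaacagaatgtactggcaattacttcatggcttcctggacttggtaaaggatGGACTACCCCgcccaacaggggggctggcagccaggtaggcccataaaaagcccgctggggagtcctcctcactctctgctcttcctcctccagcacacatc
Krt20: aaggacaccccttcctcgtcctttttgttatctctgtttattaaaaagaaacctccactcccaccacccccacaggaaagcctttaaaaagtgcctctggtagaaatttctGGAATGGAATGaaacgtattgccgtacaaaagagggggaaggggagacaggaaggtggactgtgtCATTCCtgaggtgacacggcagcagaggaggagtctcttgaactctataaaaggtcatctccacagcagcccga
The motifs were AP-1 (TGANTCA), STAT (TTCNNNGAA), NF-kB (GGG and CC with any 5 bases between), TEAD (GGAATG) and SOX (ACAANG), which occurred in 7.81%, 8.3%, 50.79%, 14.66% and 41.25% of 32851 promoter windows of the same length. Lcn2 held 1 match to the NF-kB letters beginning 102 bases before the start, and Krt20 held 3 matches to the TEAD letters beginning 139, 134 and 74 bases before it, of which the first pair overlap. This Havcr1 window held none of the 5 motifs, while the most downstream Havcr1 window, not printed, held 1 match to the AP-1 letters beginning 10 bases after its start. A match is a description of letters and not a sign of binding.

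Havcr1 (ENSMUSG00000040405.14, GRCm39 chromosome 11, 46625907 to 46670405, plus strand) split the libraries into a high and a low set that crossed the groups. In T-ND its level was 130, 122, 64.5 and 2.82 CPM (TMM-normalised read counts scaled to library size) in replicates 1 to 4, resting on 2220, 2710, 1245 and 53 counts. Levels in T-D were 4.03, 5.06, 1.96 and 9.99 CPM, and in PT-ND they were 5.72, 4.08 and 5.99 CPM. In PT-D the first replicate had 4.82 CPM and the others 79.1 and 64.9 CPM. Thus 3 of 4 T-ND and 2 of 3 PT-D kidneys were high, and no T-D or PT-ND kidney was. No library lay between 9.99 and 64.5 CPM, a 6.45-fold gap with 9 libraries below it and 5 above. Group means were 80.0 ± 59.2 CPM in T-ND (SD, n = 4), 49.6 ± 39.4 in PT-D (n = 3), 5.26 ± 1.03 in PT-ND (n = 3) and 5.26 ± 3.41 in T-D (n = 4). Of the neighbours in this order, T-ND and PT-D did not pass the test, PT-D and PT-ND did, as given under that comparison, and PT-ND and T-D were not tested against each other. The range over all libraries was 66.6-fold, against 1.47-fold for Krt8. In bulk tissue, fewer cells that express a gene and less RNA per cell cannot be told apart.

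**Figure D1:**
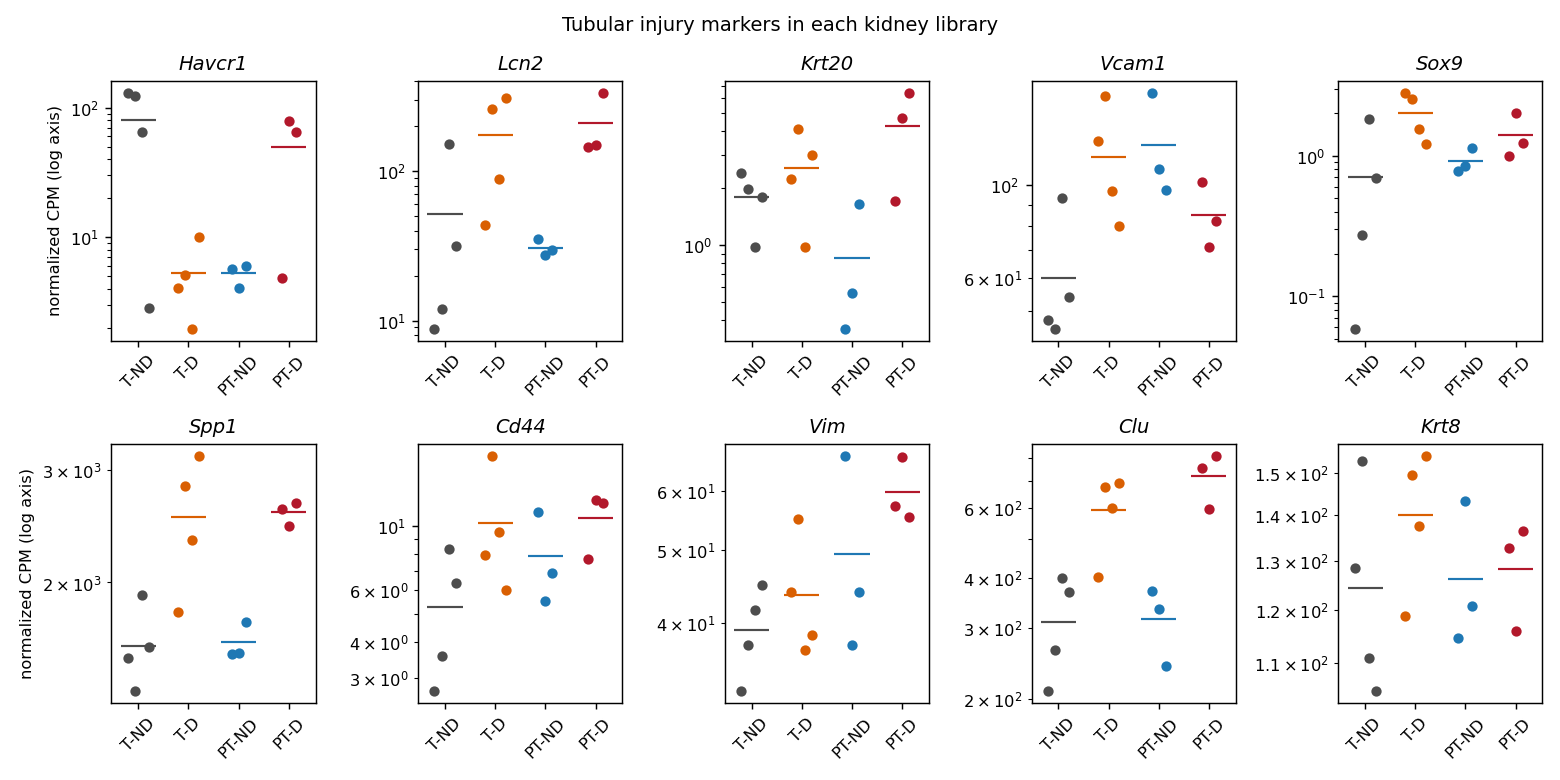
Level of each of the 10 members in CPM (log axis) in the 14 libraries by group, with 1 dot per library and a bar at the group mean. Havcr1 is high in 3 T-ND and 2 PT-D libraries and at 1.96 to 9.99 CPM in the other 9, whereas Krt8 stays between 105 and 154 CPM throughout.

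Lcn2 (ENSMUSG00000026822.15, chromosome 2, 32274645 to 32278264, minus strand) separated the preterm groups by diabetes but not the term groups. T-ND levels were 8.81, 11.9, 153 and 31.7 CPM and T-D levels 44.0, 263, 88.8 and 309 CPM. PT-ND levels were 35, 27.6 and 29.9 CPM and PT-D levels 145, 151 and 336 CPM. All PT-D libraries lay above all PT-ND libraries, while T-ND 3 stood above T-D 1 and T-D 3. Mean levels were 211 ± 108 CPM in PT-D, 176 ± 129 in T-D, 51.5 ± 68.7 in T-ND and 30.8 ± 3.78 in PT-ND (SD, n = 3, 4, 4 and 3).

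Krt20 (ENSMUSG00000035775.3, chromosome 11, 99319227 to 99328985, minus strand), a keratin of surface epithelia that appears in injured tubules, was a low transcript, with 7 to 162 counts per library. Its levels were 2.41, 1.99, 0.984 and 1.81 CPM in T-ND, 2.24, 4.10, 0.979 and 2.99 in T-D, 0.361, 0.559 and 1.65 in PT-ND, and 1.71, 4.72 and 6.4 in PT-D. The 3 PT-D libraries lay above the 3 PT-ND libraries, but PT-D 1 at 1.71 CPM lay barely above PT-ND 3 at 1.65 CPM. PT-D 2 and PT-D 3 held the highest Krt20 levels of the series and were also the PT-D kidneys with high Havcr1.

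Spp1 and Clu, which encode secreted proteins, were the abundant members. Spp1 (ENSMUSG00000029304.15, chromosome 5, 104582165 to 104589235, plus strand) had 1523, 1351, 1913 and 1586 CPM in T-ND and 1799, 2836, 2328 and 3159.8 CPM in T-D. Spp1 levels of 1547, 1551 and 1737 CPM in PT-ND were all below the 2605, 2454.5 and 2666 CPM of PT-D. Clu (ENSMUSG00000022037.16, chromosome 14, 66190200 to 66218999, plus strand) showed the same separation. It had 209, 264, 401 and 369.9 CPM in T-ND and 402, 677, 598 and 691 CPM in T-D. Its preterm levels were 371, 334 and 242 CPM without and 755, 595 and 810.2 CPM with diabetes. For Clu the lowest diabetic kidney of each birth group lay above the highest nondiabetic one, although in the term groups T-D 1 exceeded T-ND 3 only by 402.4 against 401.5 CPM. Spp1 shares 362 exon bases with an overlapping gene model on the same strand, and reads assigned to more than 1 gene were not counted.

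The adhesion molecules Vcam1 and Cd44 ranged 3.66-fold and 6.44-fold over the libraries. Vcam1 (ENSMUSG00000027962.15, chromosome 3, 115903598 to 115923355, minus strand), the ligand of leukocyte integrin VLA4 that is also found on unrepaired proximal tubule cells, had 47.8, 45.5, 93.5 and 54.1 CPM in T-ND and 128, 164, 97.1 and 79.8 CPM in T-D. Its preterm levels were 166, 109.7 and 97.6 CPM in PT-ND and 102, 71.1 and 82.1 CPM in PT-D. The lowest levels were therefore those of T-ND 1, 2 and 4. Cd44 (ENSMUSG00000005087.18, chromosome 2, 102641486 to 102732010, minus strand), a hyaluronan receptor, had 2.70, 3.57, 8.34 and 6.38 CPM in T-ND, 7.95, 17.4, 9.53 and 6.04 in T-D, 11.1, 5.53 and 6.90 in PT-ND and 7.66, 12.2 and 12 in PT-D. Cd44 levels overlapped between every pair of groups.

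Sox9 (ENSMUSG00000000567.6, chromosome 11, 112673009 to 112678586, plus strand) was the lowest member, with 1 to 54 counts per library. It had 0.0587, 0.271, 1.81 and 0.691 CPM in T-ND, where the first value rests on 1 count, and 2.80, 2.53, 1.54 and 1.21 CPM in T-D. Preterm levels were 0.773, 0.839 and 1.14 CPM in PT-ND and 0.992, 2.01 and 1.23 CPM in PT-D. At this depth no pair of groups that was tested was told apart for Sox9, and T-D and PT-ND were not tested against each other.

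The filament genes Vim and Krt8 ranged 2.06-fold and 1.47-fold over the libraries. Vim (ENSMUSG00000026728.10, chromosome 2, 13578738 to 13587639, plus strand), a filament of mesenchymal cells that dedifferentiated tubule cells take on, ranged from 32.4 to 44.9 CPM in T-ND, 36.7 to 55.1 in T-D, 37.3 to 66.8 in PT-ND and 55.3 to 66.5 in PT-D. All 3 PT-D libraries lay above all term libraries for Vim, by a margin of 55.3 against 55.1 CPM over T-D 2. Krt8 (ENSMUSG00000049382.11, chromosome 15, 101905133 to 101912917, minus strand), a keratin of simple epithelia, stayed between 105 CPM in T-ND 4 and 154 CPM in T-D 4. A Krt8 pseudogene is annotated, and how near-identical copies shared reads with it is uncertain.

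Levels were compared between genes only as CPM per kilobase of exon. The median over the 14 libraries was 653 CPM per kilobase for Spp1, 71.4 for Clu, 66.7 for Krt8, 25.3 for Lcn2, 10.6 for Vcam1, 9.25 for Vim, 2.26 for Havcr1, 1.15 for Cd44, 0.979 for Krt20 and 0.281 for Sox9. Ranked by mean CPM per kilobase among 22171 genes, Spp1 stood at place 29, while Cd44, Krt20 and Sox9 stood at places 10277, 10326 and 14335. Havcr1 ranked at 2359 by its mean, which its 5 high libraries carry, and Vcam1 at 2975.

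**Figure D2:**
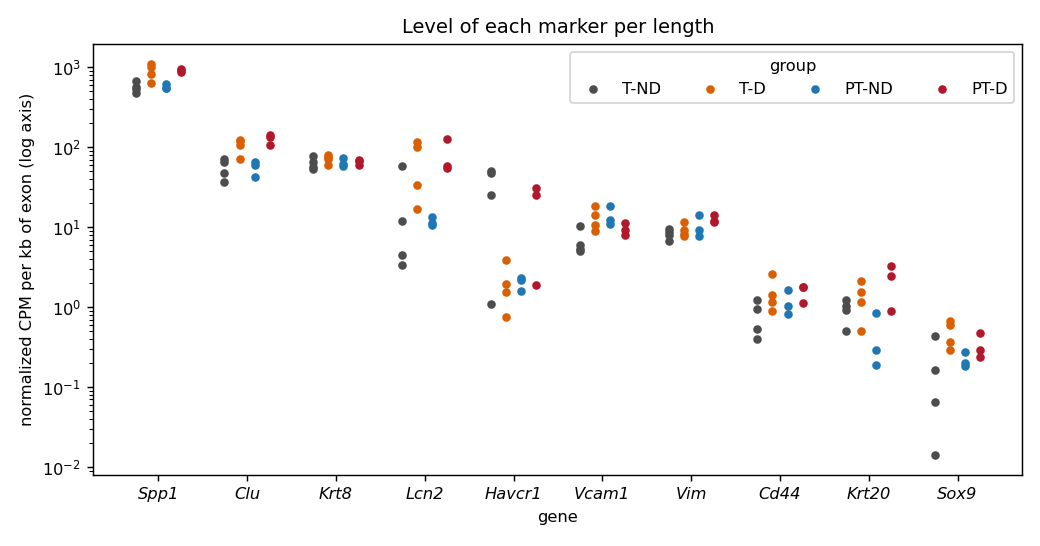
Level of each member as CPM per kilobase of exon (log axis), with 1 dot per library coloured by group. Spp1 lies far above the other members, and Havcr1 spans the widest range of the 10.

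STZ diabetes in mice born preterm was addressed by PT-D vs. PT-ND, the comparison with the largest number of members called. By the members' median log2 fold change it stood below PT-D vs. T-ND (0.83) and T-D vs. T-ND (0.78). Lcn2 rose 6.83-fold (log2 fold change 2.77 ± 0.31 SE, adjusted p = 0.0017), Havcr1 9.42-fold (3.24 ± 0.73, adjusted p = 0.0185), Krt20 5-fold (2.32 ± 0.62, adjusted p = 0.0329) and Clu 2.28-fold (1.19 ± 0.20, adjusted p = 0.00678). These 4 of 10 members passed both thresholds for a differentially expressed gene (DEG), an adjusted p below 0.05 and a change beyond 2-fold, all upward, against 2.96% of the 22303 genes tested. Spp1 was also higher, with a log2 fold change of 0.68 ± 0.16 and an adjusted p of 0.0212, but stayed under the 2-fold threshold, and without the suffixed libraries its adjusted p was 0.115. For Lcn2, Krt20, Spp1 and Clu the groups did not overlap, with PT-D higher, which held for 18.7% of all genes tested. Havcr1 was called although its groups overlapped, since PT-D 1 lay inside the PT-ND range.

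The other members gave no call in this comparison. The log2 fold change was -0.55 ± 0.22 for Vcam1 (adjusted p = 0.117), 0.62 ± 0.47 for Sox9 (0.421), 0.43 ± 0.29 for Cd44 (0.364), 0.27 ± 0.21 for Vim (0.419) and 0.02 ± 0.15 for Krt8 (0.939). The median log2 fold change of the 10 members was 0.65, against 0.05 over all genes tested.

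Calls in PT-D vs. PT-ND differed in how much they rested on single libraries. Clu stayed a DEG with any of the 6 libraries left out and in all 10 other fits. Lcn2 did so with any library left out, but had an adjusted p of 0.0604 in a fit that shared the spread of all 14 libraries. Havcr1 missed the threshold in that fit (adjusted p = 0.0548), without PT-ND 2 (log2 fold change 3.07, 0.0696) and without PT-ND 3 (3.33, 0.0722). Krt20 was the least stable, with adjusted p of 0.0699 without PT-ND 1, 0.117 without PT-ND 2, 0.0589 without PT-D 2 and 0.114 without PT-D 3.

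Markers of other cell types also moved between PT-ND and PT-D. Of 8 endothelial markers 3 rose (Cdh5, Kdr and Egfl7), and their summed level ran from 397 to 612 CPM in PT-ND and from 573 to 764 CPM in PT-D. Of 6 podocyte markers 2 rose (Nphs1 and Synpo), with sums of 281 to 486 and 522 to 688 CPM. A single marker rose among 9 leukocyte markers (Adgre1, sums of 135 to 149.98 and 130 to 152 CPM) and 8 fibroblast and pericyte markers (Pdgfrb, 122 to 196 and 143 to 275 CPM). No marker of a tubule segment was called higher.

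None of 19 proximal tubule markers was called, with sums of 30388.6 to 32554 CPM in PT-ND and 22073 to 29018 CPM in PT-D. None of 4 loop of Henle markers was (1903 to 2729.9 and 876 to 2087 CPM), nor any of 7 urothelial markers (5.77 to 44.7 and 3.07 to 22.3 CPM), while 1 of 6 collecting duct markers, Slc4a1, fell (634 to 1029.5 and 323 to 718 CPM). Every library held counts of the defining markers Lrp2, Umod, Aqp2, Nphs1, Pecam1, Pdgfrb, Ptprc and Upk2, the lowest being 2 counts of Upk2, too few to tell whether that library held urothelium. The part of cell composition in the members' results was not tested.

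Diabetes in mice born at term, T-D vs. T-ND, gave no call among the members, against 15 DEGs or 0.0673% of the 22275 genes tested. By unadjusted p below 0.05, 5 members (Havcr1, Vcam1, Spp1, Cd44 and Clu) and 11.8% of genes passed, and DESeq2 called 1 member, Havcr1. For Havcr1 the difference pointed the other way than in the preterm groups, with a log2 fold change of -3.97 ± 0.85 and an adjusted p of 0.122. It passed with DESeq2 (adjusted p = 0.00718), with no filter on low counts (0.0172), without T-ND 3 (0.0423) and without T-ND 4 (0.00525), the T-ND library with low Havcr1. Without the libraries whose name ends in a, it was -2.59 with an adjusted p of 0.635.

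The remaining members were mostly higher in T-D than in T-ND, without a call. Log2 fold changes were 1.75 ± 0.83 for Lcn2 (adjusted p = 0.439), 1.48 ± 0.69 for Sox9 (0.429), 0.94 ± 0.27 for Vcam1 (0.235), 0.94 ± 0.39 for Cd44 (0.386), 0.91 ± 0.23 for Clu (0.188), 0.65 ± 0.19 for Spp1 (0.253) and 0.49 ± 0.43 for Krt20 (0.682). Vim (0.14 ± 0.17) and Krt8 (0.15 ± 0.16) were near 0. With DESeq2, Clu (0.94, adjusted p = 0.0156), Vcam1 (0.97, 0.0348) and Spp1 (0.68, 0.0439) passed the adjusted p threshold but not the 2-fold threshold. The rest of these members passed neither as a DEG nor by adjusted p with DESeq2. Of all members, Clu alone had term groups that did not overlap with T-D higher, as 2.9% of genes did. Without T-ND 3, Lcn2 reached 3.33 (adjusted p = 0.0302) and Vcam1 1.25 (0.0235), in a fit where the DEGs over all genes also rose from 15 to 290 of 22254.

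**Figure D3:**
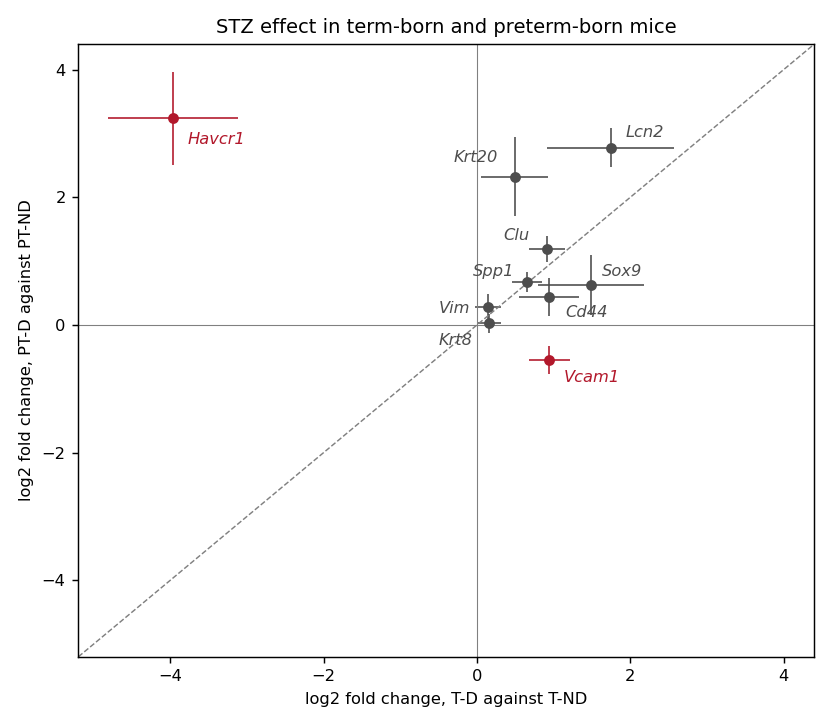
Log2 fold change of each member with diabetes in term mice (T-D vs. T-ND, horizontal axis) and in preterm mice (PT-D vs. PT-ND, vertical axis), with SE bars and a dashed line of equal effects. Havcr1 lies at -3.97 and 3.24 and Vcam1 at 0.94 and -0.55, in fits of each pair of groups, and both are drawn in red because their effects differed by the interaction test.

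Whether diabetes had a different effect after preterm birth was tested as an interaction over all 14 libraries. Havcr1 differed, with an interaction of 7.18 ± 1.37 on the log2 scale (adjusted p = 0.0187), where the effect of diabetes in this fit of all libraries was 3.24 in preterm and -3.95 in term mice. Vcam1 differed the other way, by -1.51 ± 0.40 (adjusted p = 0.0393), with effects in the same fit of -0.55 in preterm and 0.96 in term mice. Thus 2 of 10 members were called, against 4.45% of the 22339 genes tested. Among the cell type markers, Pdgfrb of pericytes (1.51, adjusted p = 0.0486) and Kdr (1.83, 0.0375) and Egfl7 (2.16, 0.0148) of endothelium were called too, and their part was not tested. Of the others, Krt20 had 1.81 ± 0.80 (adjusted p = 0.175), Lcn2 1.00 ± 1.11 (0.626), Sox9 an adjusted p of 0.604, Cd44 0.608 and Clu 0.26 (0.687).

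The Havcr1 interaction stayed between 6.67 and 7.72 with any library left out. Its adjusted p rose to 0.0603 without PT-ND 3 and to 0.0536 without PT-D 3, and it was 6.21 with an adjusted p of 0.0849 without the libraries whose name ends in a. Vcam1 kept its call in 4 of 14 such fits, namely without T-ND 3, T-D 1, T-D 4 or PT-D 1. In the other 10 its adjusted p ran from 0.0532 to 0.109 and its interaction stayed between -1.80 and -1.24 over all 14. With the name suffix as a covariate the Vcam1 adjusted p was 0.0506, and without the suffixed libraries it was 0.143 at -1.41.

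Preterm birth without diabetes, PT-ND vs. T-ND, gave no call among the members, against 0.0809% of genes tested. Unadjusted p was below 0.05 for Havcr1 and Vcam1, as for 10.7% of genes, and these were the 2 members that DESeq2 called. Havcr1 was lower in PT-ND by a log2 fold change of -3.92 ± 0.92 (adjusted p = 0.207), with T-ND 4 at 2.82 CPM below all PT-ND libraries. The adjusted p was 0.016 with DESeq2, 0.0251 with no filter on low counts and 0.00136 without T-ND 4. Without the suffixed libraries the log2 fold change was -2.52 (adjusted p = 0.521). Vcam1 was higher by 1.05 ± 0.27 (adjusted p = 0.243), with all PT-ND above all T-ND libraries, as for 5.48% of genes. Its adjusted p was 0.0204 with DESeq2, and without T-ND 3, when DEGs over all genes rose from 18 to 96, the log2 fold change was 1.33 (0.0186). Lcn2 had -0.74 ± 0.79 (0.756) and Krt20 -1.07 ± 0.55 (0.512).

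Preterm birth within diabetic mice, PT-D vs. T-D, gave no call either, against 0.193% of genes, and unadjusted p was below 0.05 for Havcr1 and Vim, as for 22.3% of genes. Havcr1 had a log2 fold change of 3.24 ± 0.71 and an adjusted p of 0.0687. The adjusted p was 0.0148 with DESeq2, which called Havcr1 alone of the members, 0.0468 in the fit of all 14 libraries and 0.0276 without the libraries whose name ends in a. Without PT-D 1, the PT-D library with low Havcr1 and itself a suffixed library, it was 0.00608. Havcr1 was called in 4 of 10 other fits and in 1 of 7 with a library left out. Its adjusted p was 0.108 with the name suffix as a covariate, 0.157 without PT-D 2 and 0.201 without PT-D 3. Vim had 0.45 ± 0.18 (0.169), with all PT-D above all T-D libraries, as for 12.4% of genes. Lcn2 (0.25 ± 0.54), Krt20 (0.73 ± 0.50), Vcam1 (-0.46 ± 0.24) and Clu (0.28 ± 0.22) had adjusted p of 0.832, 0.41, 0.284 and 0.48. No cell type marker was called here. Podocyte marker sums ran from 159 to 498 CPM in T-D and from 522 to 688 CPM in PT-D. Endothelial sums ran from 267 to 494 and from 573 to 764 CPM, and urothelial sums from 32.1 to 63.9 and from 3.07 to 22.3 CPM. Sums of the other cell types overlapped. The part of cell composition in the members' results was not tested.

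The combination of preterm birth and diabetes was addressed by PT-D vs. T-ND. Clu was the single DEG among the members, 2.30-fold higher in PT-D (log2 fold change 1.2 ± 0.22, adjusted p = 0.0309), where 0.995% of genes were called higher. Spp1 was higher by 0.69 ± 0.14 (adjusted p = 0.0388), under the 2-fold threshold. Clu, Spp1 and Vim (0.60 ± 0.14, adjusted p = 0.0523) did not overlap between the groups, as 12% of genes did not with PT-D higher.

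Havcr1, high in most kidneys of both groups, had -0.70 ± 1.03 (0.715), and the difference turned to 1.09 without the suffixed libraries. Lcn2 had 2.03 ± 0.85 (0.18), Krt20 1.24 ± 0.45 (0.133) and Cd44 1.01 ± 0.36 (0.132). The Clu call held with T-ND 3 left out and with none of the other 6 libraries left out, where its adjusted p ran from 0.0617 to 0.114. Without the suffixed libraries Clu had 0.85 and an adjusted p of 0.106. Without T-ND 3, Lcn2 (3.58, adjusted p = 0.00769) and Cd44 (1.32, 0.0375) passed too, while DEGs over all genes rose from 323 to 1070. Podocyte markers were also higher, with 4 of 6 called and sums of 251 to 354 CPM in T-ND against 522 to 688 CPM in PT-D. Of the markers of other cell types, endothelial Cdh5 (1.55, adjusted p = 0.0203) and leukocyte Ptprc (1.10, 0.0401) were also higher, and loop of Henle Umod (-1.39, 0.0325) and urothelial Krt14 (-2.73, 0.0291) lower. The part of these cell types in the members' results was not tested.

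**Figure D4:**
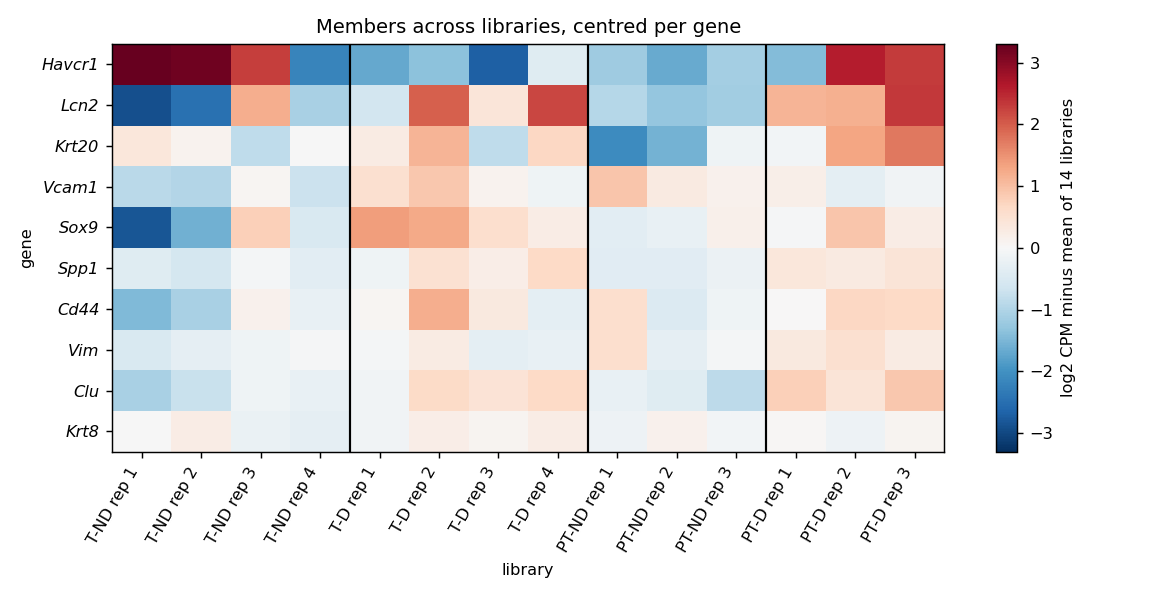
Log2 CPM of each member in each library minus the mean of that member over the 14 libraries, with libraries ordered by group. Havcr1 holds the widest contrast, high in T-ND 1 to 3 and PT-D 2 and 3, and T-ND 3 is the nondiabetic library with high Lcn2.

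Across kidneys, no relation between Havcr1 and another member passed the test. Havcr1 was related to each of the other 9 members over the 14 libraries after the group means had been removed, and exact permutation of libraries within groups gave no relation with an adjusted p below 0.05. The closest was Krt20, with Pearson's r 0.44 (exact permutation p = 0.0939, adjusted 0.845) and Spearman's rho 0.58 (p = 0.0183, adjusted 0.165), both two-sided over 20736 permutations. Without T-ND 4 and PT-D 1, whose Havcr1 lay farthest from the median once group means were removed, r for Krt20 was 0.65. For Lcn2, r was 0.01 (exact permutation p = 0.981, adjusted 0.981) and rho -0.02 (p = 0.955, adjusted 0.955). T-ND 1 and T-ND 2 held the highest Havcr1 and the lowest Lcn2 levels of the series, and T-D 4 the reverse pairing of 9.99 CPM Havcr1 with 309 CPM Lcn2.

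**Figure D5:**
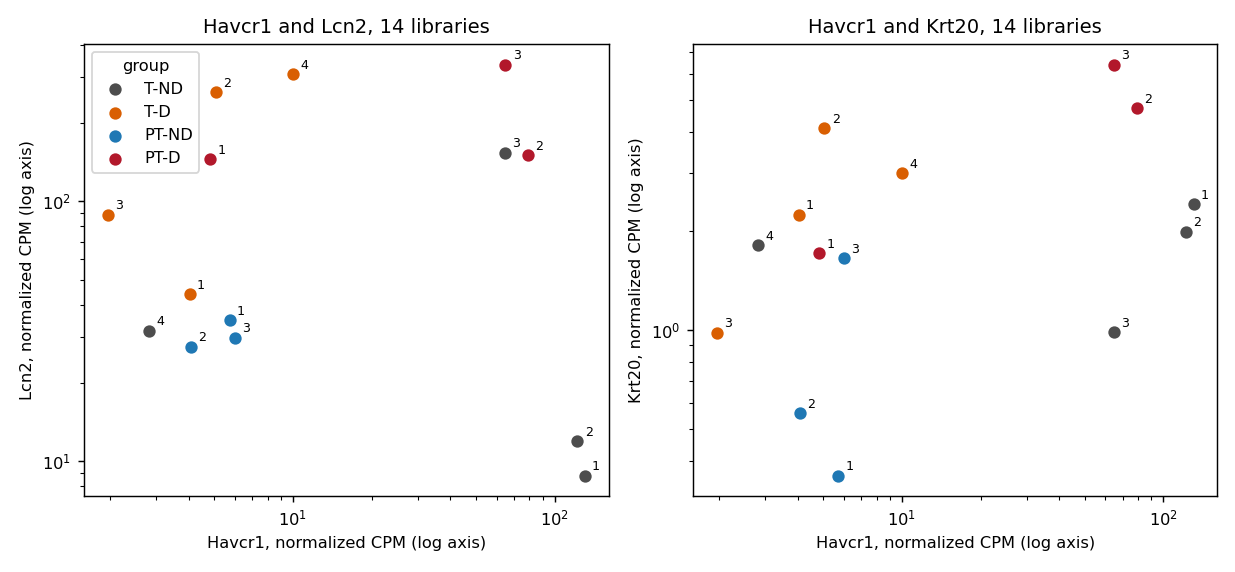
Havcr1 level against Lcn2 (left) and Krt20 (right) in CPM on log axes, 1 point per library coloured by group with its replicate number. High Havcr1 occurs both with the lowest Lcn2 (T-ND 1 and 2, at 8.81 and 11.9 CPM) and with high Lcn2 (PT-D 2 and 3, at 151 and 336 CPM).

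A wider list of 37 genes of tubular injury, repair and the acute response to damage was examined in the same fits, without the 10 members. In PT-D vs. PT-ND 6 rose and 2 fell, where 2.96% of all genes tested were called higher and 1.99% lower. The matricellular gene Ccn2 rose from 40.6 ± 2.24 to 101 ± 12.7 CPM (log2 fold change 1.32 ± 0.15, adjusted p = 0.00178) and complement C3 from 32.8 ± 12.5 to 253 ± 159 CPM (2.95 ± 0.43, 0.00434). The fibrinogen chain genes Fga (3.22 ± 0.57, 0.00807) and Fgb (3.58 ± 0.68, 0.01) rose as well, Fga from 82.6 ± 64.7 to 771 ± 414 CPM.

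The chemokine gene Ccl2, which draws monocytes, was among the genes of the list that were called lower. It fell from 97.9 ± 13.6 CPM in PT-ND to 26 ± 15.3 CPM in PT-D (-1.92 ± 0.34, adjusted p = 0.00775), and the urokinase gene Plau fell too (-1.05 ± 0.30, 0.0428). In PT-ND vs. T-ND, Ccl2 was the single gene of the list that was called, higher from 36.9 ± 4.35 CPM (1.41 ± 0.14, adjusted p = 0.00649). Over all genes 0.0809% were called there. The interaction called 4 genes of the list, all lower, as 2.46% of all genes tested were. They were Ccl2 (-2.95 ± 0.46, 0.00792), Prom1 (-1.06 ± 0.25, 0.0301), the chemokine gene Cxcl1 (-3.14 ± 0.81, 0.0372) and the growth factor gene Hbegf (-1.24 ± 0.33, 0.0413).

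Elsewhere few genes of the list were called. PT-D vs. T-ND called 2, Myc (1.2 ± 0.16, adjusted p = 0.0173) and Akap12 (1.66 ± 0.36, 0.046), both higher, as 0.995% of all genes were. T-D vs. T-ND and PT-D vs. T-D called 0, against 0.0673% and 0.193% of all genes. The list's median log2 fold change was 0.27 in PT-D vs. PT-ND, 0.47 in T-D vs. T-ND and 0.59 in PT-D vs. T-ND, against medians over all genes of 0.05, -0.02 and 0.03. In PT-D vs. T-D it was -0.06 against 0.06, with 22 of 37 genes negative, in PT-ND vs. T-ND 0.02 against a value within 0.01 of 0, and for the interaction 0.13 against 0.07. None of the 19 genes of the differentiated proximal tubule was called in any of the 6 comparisons.

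The genes most like each member over the 14 libraries were ranked among 12156 genes by Pearson's r of log2 CPM, as a description of libraries that share groups. For Havcr1 they were Phf20 (r 0.886), Psmd11 (0.859), a proteasome subunit, and Dkc1 (0.848), which modifies ribosomal and telomerase RNA. Lcn2 was followed most closely by the interferon-induced GTPase Gbp2 (0.970), and Vcam1 by Tnfaip3 (0.970), Csf1 (0.956) and Ptx3 (0.950), all inflammatory-response genes. The retinol receptor Stra6 was the nearest gene to both Sox9 (0.915) and Cd44 (0.925). Nearest to Spp1 was Btg1 (0.951), to Clu Arid5b (0.934), to Vim C1qtnf1 (0.905), to Krt20 Dglucy (0.874) and to Krt8 Brix1 (0.853).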

How the data were processed

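Reads were aligned by the authors to GRCm39 with STAR, and the deposited files held raw counts per gene, with unstranded and strand-specific columns. The unstranded counts were used, and a library's reads on more than 1 gene, 6.86% to 8.09%, had been left uncounted. Of 56980 identifiers 56236 were matched to gene symbols of the GENCODE mouse annotation with the version number ignored.

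Genes with more than 10 summed counts were kept. Each pair of groups was tested with the edgeR quasi-likelihood test (edgeR 4.0.16, R 4.3.3, TMM normalisation) on the libraries of both groups, and the interaction on all 14 libraries. Adjusted p-values are Benjamini-Hochberg values over all genes tested, and a DEG had an adjusted p below 0.05 and an absolute log2 fold change above 1. The SE was the log2 fold change divided by the square root of F. Scripts were tested on simulated data. Pairings by replicate number were not supported by the labels or by correlations of deviations.

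Other fits used DESeq2 1.42.0, RLE scaling, other filters, a joint fit, replicate block, library name suffix, summed strands or left out single libraries. The members and lists were chosen with earlier results of these data known. Genes named beside the members were the 4 of a list with the smallest adjusted p per direction and the 3 closest in level. The libraries are separate mice, so p-values measure the spread between mice.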

Additional observations from a re-analysis of the deposited data

Results flagged for a closer look

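In T-ND, Lcn2 was 153 CPM in replicate 3, against 8.81, 11.9 and 31.7 CPM in the others, far above the rest of its group by Dixon's criterion. It was the 1 such value among 20 groups of 4 samples tested, and chance flags about 1 in 20 groups. The same library had the highest Vcam1 (93.5 CPM), Cd44 (8.34 CPM) and Sox9 (1.81 CPM) of T-ND, and the cause was not tested.

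The effect of diabetes on Havcr1 differed between preterm and term mice by 7.18 on the log2 scale (edgeR interaction, adjusted p = 0.0187). For Vcam1 the effect differed by -1.51 (adjusted p = 0.0393).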

How the results depend on the processing

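Of 1080 refits of single members, 1026 stayed on their side of the threshold, 32 lost a call, 22 gained one and 0 turned a called direction. Most were refits of members that were not called and had no call to lose. The lost calls numbered 8 in PT-D vs. PT-ND, 8 in PT-D vs. T-ND and 16 for the interaction, the comparisons that held calls. Clu in PT-D vs. T-ND kept its call in 8 of 10 other fits and in 1 of 7 with a library left out. Some values that were not called turned sign, such as Havcr1 in PT-D vs. T-ND without the suffixed libraries and Krt8 in 4 of 6 fits of PT-D vs. PT-ND with a library left out. The number of members called in T-D vs. T-ND (0) was 1 with DESeq2 and 1 with no filter on low counts. In PT-D vs. PT-ND (4) it was 2 in the joint fit of all libraries. In PT-D vs. T-D (0) it was 1 with DESeq2, with no filter, in the joint fit and without the suffixed libraries. In PT-ND vs. T-ND (0) it was 2 with DESeq2 and 1 with no filter. In PT-D vs. T-ND (1) it was 2 by adjusted p alone and with DESeq2, and 0 without the suffixed libraries. The interaction (2) gave 1 with the suffix as a covariate and 0 without the suffixed libraries. With single libraries left out, the number ran from 0 to 3, 2 to 4, 0 to 1, 0 to 1, 0 to 3 and 0 to 2 in the same order. Without T-ND 4 and PT-D 1, whose group-centred Havcr1 lay farthest from the median, r of Havcr1 with Krt20, Sox9, Cd44 and Vim was 0.65, -0.42, -0.38 and 0.10.

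Replicate numbers did not pair the samples, since same-numbered libraries correlated from -0.38 to 0.41 (median -0.13). With the replicate block, the number of members called was 1 in PT-ND vs. T-ND, 0 in PT-D vs. T-ND and 1 for the interaction.

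Over all genes, DEGs in T-D vs. T-ND numbered 15, against 293 with DESeq2, 109 with no filter, 58 in the joint fit and 1 without the suffixed libraries. PT-D vs. T-D gave 43, against 655, 657, 396 and 17, with 22 under the stricter filter, 23 with the suffix as a covariate and 83 with the replicate block. PT-ND vs. T-ND gave 18, against 169 with DESeq2, 83 with no filter, 45 with the suffix as a covariate, 11 with summed strands, 8 under the stricter filter and 6 with the block. PT-D vs. T-ND gave 323, against 947 with DESeq2, 645 with no filter, 616 by adjusted p alone, 70 without the suffixed libraries and 73 with the block. PT-D vs. PT-ND gave 1105, against 2881 by adjusted p alone, and the interaction 993, against 1645 with DESeq2, 12 without the suffixed libraries and 563 with the block. With single libraries left out, DEGs ran from 2 (without T-ND 1, T-ND 2 or T-D 2) to 290 (T-ND 3) in T-D vs. T-ND, 594 (PT-ND 3) to 1419 (PT-ND 1) in PT-D vs. PT-ND, 26 (T-D 3) to 105 (T-D 4) in PT-D vs. T-D, 1 (PT-ND 2) to 96 (T-ND 3) in PT-ND vs. T-ND, 28 (PT-D 2) to 1070 (T-ND 3) in PT-D vs. T-ND and 76 (PT-D 3) to 1241 (T-D 1) for the interaction. The causes of these differences were not tested. Groups held 3 or 4 outbred mice and Krt20 and Sox9 had low counts, so members that missed a threshold were not shown to be alike between groups.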
